A study of Drosophila melanogaster with 12 samples.

Results

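Sex peptide is a small seminal fluid protein that male Drosophila melanogaster pass to females at mating, and it acts there together with a group of other proteins. Of that group 8 genes are described here: the peptide gene SP, its relative Dup99B, the network genes aqrs, antr, intr, lectin-46Ca and lectin-46Cb, and SPR, which encodes the sex peptide receptor. They were found as the probe sets whose only gene symbol in the platform annotation was one of these names. This gave 9 probe sets of the 18769 non-control probe sets on the array, since SPR was read by 2 of them. In all, 11982 genes were read by a probe set of their own.

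The accessory glands and the ejaculatory duct of the male make the seminal fluid. Sex peptide comes from the accessory gland, Dup99B from the duct. In the mated female, sex peptide lowers the readiness to mate again and raises egg laying, by acting on SPR, a G protein-coupled receptor of neurons. The network proteins are made in the male, are passed on with the sperm, and are needed for sex peptide to be held on stored sperm, from which it is released over days. Among them aqrs and intr encode relatives of serine proteases, antr a cysteine-rich secretory protein and the lectin-46C genes C-type lectins.

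Messenger RNA was measured in whole animals of the outbred LHm population, kept at 25 °C, in 6 groups: males and females as larvae of the third instar, males and females as pupae, and males and females as adults. All groups came from this same untreated population, and each had 2 biological replicates of 10 animals pooled for 1 array, 12 arrays in all. The age of the pupae and adults and whether the adults had mated are not stated in the sources used here. Values are log2 expression after RMA, a procedure that corrects background, scales the arrays alike and summarises the short probes of a set. Array values ran between 2.47 and 15.61, and levels near the lower end lie close to the background of the array, so a difference from such a level is compressed.

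The labels were checked with marker genes. All 4 testis markers were higher in males at each stage, as for betaTub85D, a tubulin of the male germ line, at 13.63 and 13.46 in adult males against 4.90 and 4.60 in adult females. All 4 yolk and eggshell markers were lower in adult males than in adult females. Sgs3, a larval glue gene, lay between 15.15 and 15.31 in larvae and at most at 4.79 at the other stages, while the larval storage protein gene Lsp2 was at 15.03 or more in larvae and pupae alike and between 9.37 and 13.29 in adults. Over all probe sets, the difference of males minus females had a median of -0.23 for larvae, -0.37 for pupae and -0.21 for adults. For 18 bacterial control probe sets it was -0.43, -0.73 and -0.01. Differences were tested with limma in 1 fit over all 12 arrays, and a call means an adjusted p under 0.05, by the Benjamini-Hochberg method over all 18769 probe sets. A value after ± is the standard error of a log2 difference unless another error is named.

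All 7 male-supplied genes had high levels in adult males and low levels in every other group. On each of their probe sets, both adult male arrays lay above all 10 other arrays. The smallest such gap was 2.97 log2 units, for lectin-46Ca, and the largest was 8.75, for SP. In the test, 7 of the 9 member probe sets were called higher in adult males than in adult females and 0 lower. The background was 26.6% of all probe sets higher in adult males and 39% lower. In whole animals, fewer cells of a type and less RNA per cell cannot be told apart.

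SP, the main ligand, had values of 14.49 and 14.46 in adult males, against 5.35 and 5.19 in adult females. The 2 adult male arrays differed by less than the adult female ones, and the groups did not overlap. The male minus female difference was 9.21 ± 0.11 on the log2 scale (limma adjusted p = 3.52e-12, n = 2 each). SP stayed between 4.90 and 5.71 on the 10 other arrays.

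Dup99B, the ejaculatory duct peptide, had values of 14.11 and 14.27 in adult males, against 4.87 and 4.79 in adult females. Both ligand genes thus stood high in adult males and low in the same 10 arrays. The difference for Dup99B was 9.36 ± 0.13 (limma adjusted p = 7.28e-12). Among probe sets with 1 gene symbol, the one of another gene closest to Dup99B in its profile over the 12 arrays was SP. The root mean square difference between the centred profiles was 0.25 log2 units. Dup99B was not among the 3 genes closest to SP.

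The serine protease relatives aqrs and intr had the same pattern as the ligands. For aqrs the values were 11.02 and 10.98 in adult males and 4.44 and 4.38 in adult females, with a difference of 6.59 ± 0.16 (limma adjusted p = 6.59e-11). For intr they were 8.15 and 8.08 in adult males and 4.14 and 3.99 in adult females, with a difference of 4.05 ± 0.14 (limma adjusted p = 7.09e-10). Neither gene exceeded 4.76 on an array of another group.

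The secretory protein gene antr had 9.44 and 9.54 in adult males, against 4.91 and 4.79 in adult females, a difference of 4.64 ± 0.13 (limma adjusted p = 1.89e-10). The C-type lectin gene lectin-46Cb had 9.94 and 9.79 in adult males, against 5.40 and 5.44 in adult females, a difference of 4.44 ± 0.13 (limma adjusted p = 2.30e-10). Its neighbour lectin-46Ca had 9.46 and 9.34 in adult males, against 6.25 and 6.27 in adult females. That difference was the smallest of the 7, at 3.14 ± 0.16 (limma adjusted p = 1.29e-08). On the 10 other arrays lectin-46Ca lay between 5.64 and 6.37. Different probe sets respond differently to the same amount of RNA, so neither levels nor differences order these genes by abundance.

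The calls for the 7 male-supplied genes held under all 21 alternative settings, with differences of at least 2.67 and adjusted p-values of at most 7.58e-07.

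**Figure D1:**
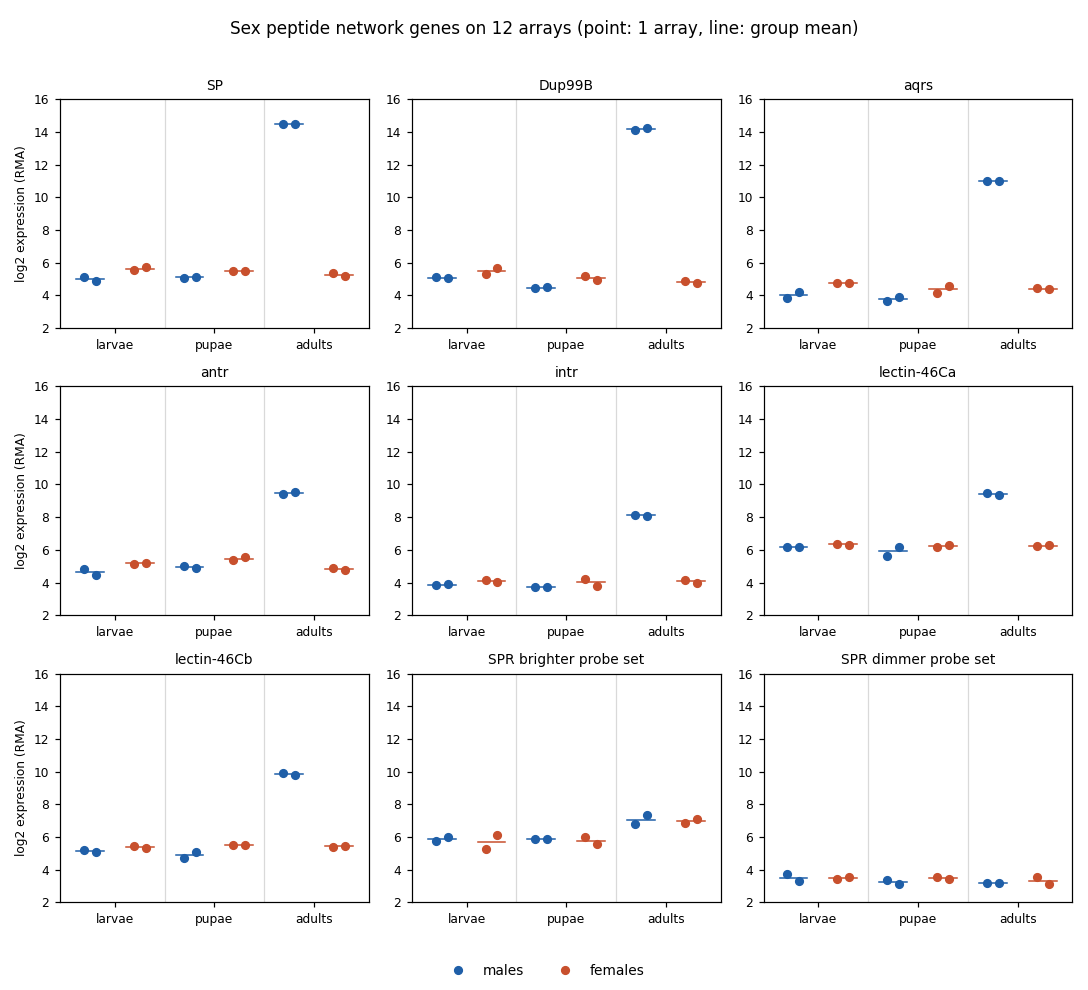
Log2 expression (RMA) of the 9 member probe sets in each of the 12 arrays, by stage, with males left of females; points are arrays and short lines are group means. The 7 male-supplied genes sit between 8.08 and 14.49 in adult males and at or below 6.37 elsewhere, while the brighter SPR probe set rises in adults of both sexes.

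Before adulthood both sexes had low values for the male-supplied genes. SP had 5.10 and 4.90 in male larvae against 5.53 and 5.71 in female larvae, and 5.06 and 5.14 in male pupae against 5.51 and 5.49 in female pupae. Males were therefore slightly lower than females on this probe set, by -0.62 ± 0.11 in larvae (limma adjusted p = 0.00177) and -0.40 ± 0.11 in pupae (limma adjusted p = 0.00978). The other 6 genes also had values below 0 for the male minus female difference at both stages, between -0.73 and -0.16 in larvae and between -0.62 and -0.29 in pupae.

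These small differences ran the same way as the shift over all probe sets. In larvae 4 of the 9 member probe sets were called lower in males (SP, Dup99B, aqrs and antr) and 0 higher, beside 27.1% lower and 11.9% higher over all probe sets. In pupae 5 were called lower (SP, Dup99B, aqrs, antr and lectin-46Cb) and 0 higher, beside 51.9% and 14.3%. The median over the 7 male-supplied genes was -0.40 in larvae and -0.49 in pupae. When each array was shifted so that the median of its log2 deviations became 0 (recentring), 2 were called lower in larvae and 0 in pupae. The larval count was also 2 without male larvae replicate 2, and the pupal count was 3 without male pupae replicate 1. The part of the shift in these calls was not tested.

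**Figure D2:**
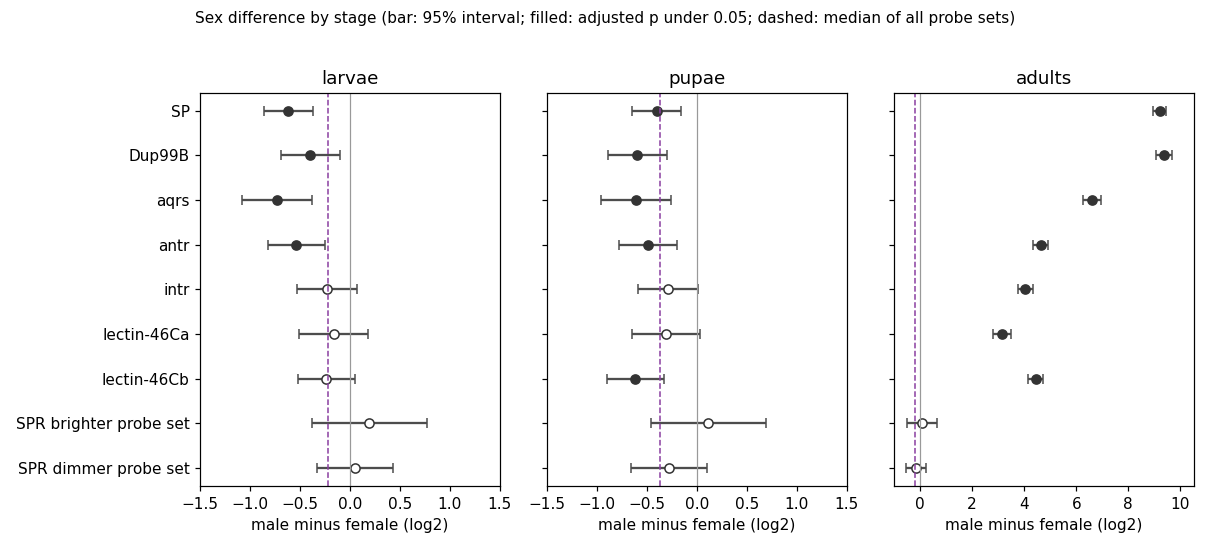
Male minus female difference (log2) of each member probe set in larvae, pupae and adults, with 95% intervals from limma; filled points have an adjusted p under 0.05 and the dashed line is the median over all probe sets. Scales differ between panels: male-supplied genes lie between -0.73 and -0.16 in larvae and between 3.14 and 9.36 in adults, and both SPR probe sets have intervals that span 0 at each stage.

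The step from pupa to adult was then compared within each sex. In males all 7 male-supplied genes rose, by 9.72 ± 0.13 for Dup99B, 9.38 ± 0.11 for SP, 7.23 ± 0.16 for aqrs, 4.98 ± 0.13 for lectin-46Cb, 4.53 ± 0.13 for antr, 4.39 ± 0.14 for intr and 3.48 ± 0.16 for lectin-46Ca. The largest limma adjusted p of these was 1.24e-08. With SPR, 8 of the 9 member probe sets were called higher in adult males than in male pupae, beside 18.8% over all probe sets. In females 1 of these 7 genes changed over the same step: antr fell by 0.61 ± 0.13 (limma adjusted p = 0.00219), with 4.91 and 4.79 in adult females against 5.35 and 5.56 in female pupae. The background in females was 27.2% called lower and 27.2% called higher.

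The change of the male minus female difference over this step tests whether the sexes moved apart. It was called for all 7 male-supplied genes, between 3.45 ± 0.22 for lectin-46Ca and 9.95 ± 0.19 for Dup99B, beside 25.5% of all probe sets called in that direction. It was not called for SPR, at -0.04 ± 0.37 on the brighter probe set, with a 95% interval between -0.85 and 0.78.

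From larva to pupa the members changed little. Dup99B was the only member called, in both sexes. It fell by 0.63 ± 0.13 in males (limma adjusted p = 0.00239), with 4.43 and 4.50 in male pupae against 5.13 and 5.05 in male larvae. In females it fell by 0.43 ± 0.13 (limma adjusted p = 0.0228), a call that was lost without female larvae replicate 2 and without female pupae replicate 2. Over all probe sets 21.2% were called lower over this step in males and 19.6% in females. The change of the sex difference over this step was called for 0 of the 9 member probe sets by limma, which had 0 members at an unadjusted p under 0.05 too, beside 17.5% of all probe sets called in either direction. Without male pupae replicate 2, 1 member was called in that test (lectin-46Cb, -0.57), and the count of members called in males over this step was 3 in place of 1. It was 2 without male larvae replicate 1.

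SPR, the receptor, behaved differently from the genes that the male supplies. On its brighter probe set the values were 6.80 and 7.32 in adult males, against 6.88 and 7.09 in adult females. The sexes overlapped, and the difference was 0.08 ± 0.26 (limma adjusted p = 0.797), with a 95% interval between -0.50 and 0.66. It was likewise not called in larvae, where males had 5.78 and 6.01 and females 5.29 and 6.12, or in pupae, where males had 5.90 and 5.86 and females 5.97 and 5.56. The intervals allow a sex difference of up to 0.77 log2 units in larvae and 0.69 in pupae, so like levels in the sexes are not shown.

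On its brighter probe set SPR changed with stage. Adults lay above pupae in both sexes, by 1.18 ± 0.26 in males (limma adjusted p = 0.00266) and 1.22 ± 0.26 in females (limma adjusted p = 0.00206), which is 2.27-fold and 2.33-fold on the linear scale. Both calls held under the 21 alternative settings. Ordered by mean, the groups ran from adult males (7.06) and adult females (6.98) to male larvae (5.90), male pupae (5.88), female pupae (5.76) and female larvae (5.70). The arrays of the 2 adult groups overlapped, as did those of the 4 younger groups. Female larvae, with 5.29 and 6.12, had the widest spread of any group on a member probe set.

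The dimmer SPR probe set stayed between 3.10 and 3.73 on all 12 arrays, close to the lower end of the array's range, and was called in none of the 9 comparisons. Under array-median centring, which moved the median over all probe sets to -0.74 in pupae and -0.68 in adults, it was called lower in male pupae (-0.65, adjusted p = 0.00461) and in adult males (-0.61, adjusted p = 0.00681). The rise in adults therefore rests on 1 of the 2 probe sets of the gene. Among probe sets with 1 gene symbol, those whose profiles lay closest to the brighter SPR probe set were of sws, CG5500 and Mpcp2, at 0.28 log2 units each over the 12 arrays.

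For each member the 3 genes with the most similar profile over the 12 arrays were named, by the root mean square difference of the profiles after each was centred on its own mean. For SP they were CG43101, Mst57Da and CG17097, at 0.19 log2 units each. For aqrs they were CG18301 (0.19), CG43111 (0.22) and lectin-29Ca (0.24), and for intr PH4alphaNE2 (0.099), CG10029 (0.13) and CG11977 (0.16). Like the members, these genes had adult male means far above their adult female means, with 7.86 against 3.76 for PH4alphaNE2 and 10.79 against 4.16 for CG18301. After SP, the genes closest to Dup99B were Acp98AB (0.27), an accessory gland protein gene, and Mst57Da (0.28). CG18281 (0.19) came first for antr, alpha4GT2 (0.15) for lectin-46Ca and CG6149 (0.15) for lectin-46Cb. These likenesses rest on 1 contrast, adult males against the other 10 arrays, and are given as a description.

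Other genes of the network were taken from a list of known genes. The male-supplied Sems, a serine protease, and CG9997 and CG17575, a protease relative and a cysteine-rich secretory protein, followed the 7 members. Of the 3, all were called higher in adult males, by 5.41 ± 0.18 for Sems, 5.32 ± 0.14 for CG9997 and 4.997 ± 0.12 for CG17575. Sems had 9.70 and 9.14 in adult males against 4.14 and 3.87 in adult females. CG9997 had 10.25 and 10.44 in adult males against 5.04 and 5.01 in adult females. With them, 10 of 10 measured male-supplied network genes were higher in adult males, beside 26.6% of all probe sets called higher and 39% called lower.

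The 3 other network genes known to act in the female, Esp, frma and hdly, were not female-limited. Esp, which encodes a predicted anion transporter, was lower in adult males, at 6.73 and 7.06, than in adult females, at 8.38 and 8.63, a difference of -1.61 ± 0.21 (limma adjusted p = 4.1e-05). It rose from pupa to adult in both sexes, by 2.23 ± 0.21 in males and 3.91 ± 0.21 in females. Larvae of both sexes, between 6.94 and 7.55, also lay above pupae, between 4.52 and 4.70. The metallopeptidase gene frma went the other way between the sexes, with 8.51 and 8.90 in adult males against 7.54 and 7.98 in adult females. That difference was 0.95 ± 0.22 (limma adjusted p = 0.00315), and under array-median centring it was 0.48 with an adjusted p of 0.0624.

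Like the brighter SPR probe set, frma rose from pupa to adult in both sexes, by 5.12 ± 0.22 in males (limma adjusted p = 1.02e-08) and 3.79 ± 0.22 in females (limma adjusted p = 9.1e-08). The gene hdly was higher in adult males, at 9.26 and 9.37, than in adult females, at 8.18 and 8.30. The difference was 1.08 ± 0.10 (limma adjusted p = 1.83e-06), and its second probe set gave 0.56. From pupa to adult hdly fell by 2.00 ± 0.10 in females (limma adjusted p = 2.04e-08), and in males the change of -0.15 ± 0.10 did not pass (limma adjusted p = 0.223). On the second probe set it fell by 0.81 ± 0.09 in females (limma adjusted p = 1.69e-05). In males that probe set rose by 0.59 ± 0.09 (limma adjusted p = 0.000235), so the probe sets of hdly differ in this step. Of these 3 genes 2 were called higher in adult males and 1 lower, beside 26.6% and 39% over all probe sets.

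**Figure D3:**
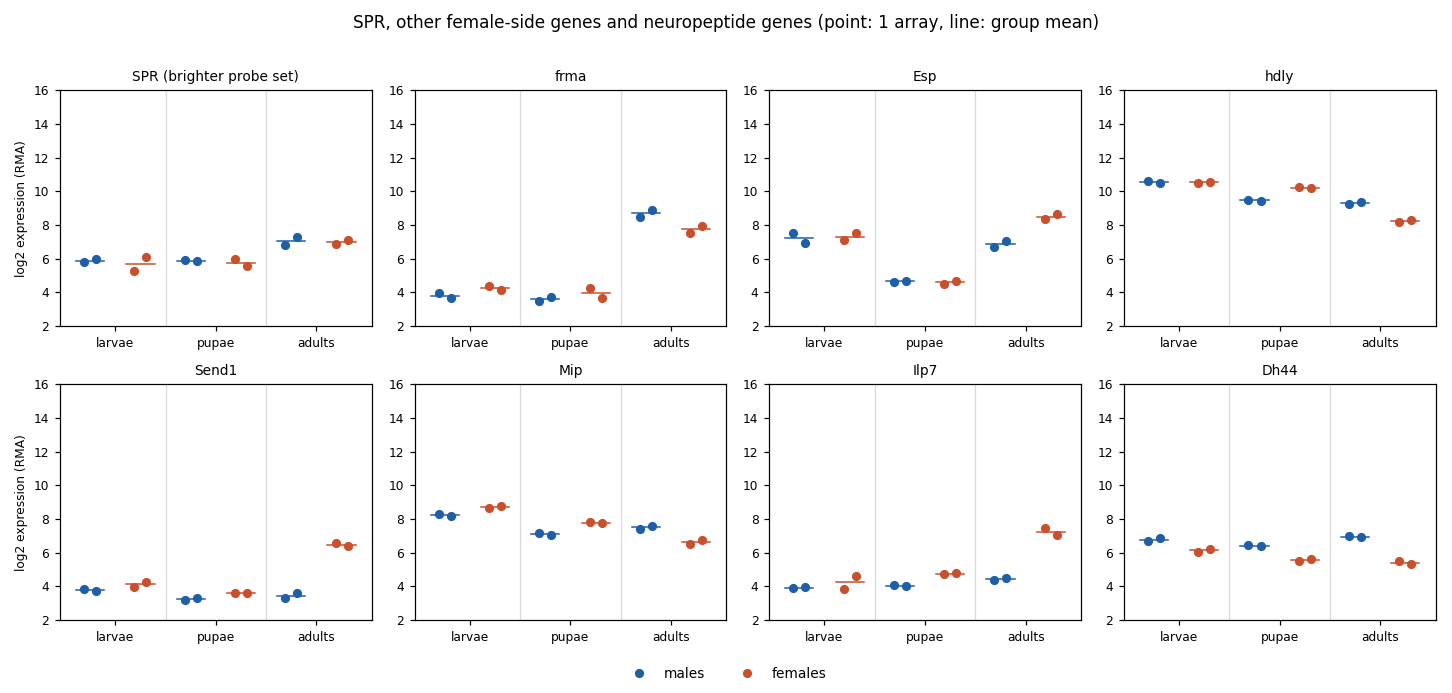
Log2 expression (RMA) in each of the 12 arrays for SPR, 3 further female-side network genes, a spermathecal gene and 3 neuropeptide genes, with males left of females at each stage. The brighter SPR probe set, the one shown, and frma rise in adults of both sexes, while Send1 and Ilp7 are high in adult females (6.39 to 7.47) and at most 4.48 in adult males.

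Genes around the receptor were read next. Mip encodes the myoinhibitory peptides, which also activate SPR. It had 7.41 and 7.60 in adult males against 6.52 and 6.77 in adult females, a difference of 0.87 ± 0.12 (limma adjusted p = 6.19e-05), whereas male pupae, at 7.19 and 7.05, were below female pupae, at 7.82 and 7.77. Mip fell by 1.15 ± 0.12 from pupa to adult in females (limma adjusted p = 8.72e-06).

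Of the 9 measured genes of the ligand and egg-laying circuit list, 3 were called higher in adult males (Mip, Dh44 and fru), 1 lower (Ilp7) and 5 did not pass. The background was 26.6% higher and 39% lower, so the share called higher was near it. The median was -0.02, beside -0.21 over all probe sets. Ilp7, an insulin-like peptide of neurons that take part in egg laying, had 4.38 and 4.48 in adult males against 7.47 and 7.05 in adult females, a difference of -2.83 ± 0.21 (limma adjusted p = 3.15e-07). Dh44, a diuretic hormone gene, was higher in males at each stage, by 0.65 ± 0.11 in larvae (0.31 with an adjusted p of 0.0616 under quantile normalization), 0.84 ± 0.11 in pupae and 1.55 ± 0.11 in adults. Of 7 fru probe sets the brightest gave 1.46 ± 0.17 in adults, 1 other was also called higher (0.66) and 5 were not called.

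For 4 genes of the female sperm storage organs, the background in adults was 26.6% called higher in males and 39% lower. Among them Send1, an endopeptidase of the spermathecae, was called lower in adult males. It had 3.32 and 3.59 in adult males against 6.58 and 6.39 in adult females, a difference of -3.03 ± 0.13 (limma adjusted p = 4.43e-09). Send2, lz and the brightest Hr39 probe set did not pass in adults. Hr39, a nuclear receptor gene needed for the glands of these organs, was read by 3 other probe sets, and on each of them it was lower in adult males, by -1.19, -1.62 and -2.05.

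The male-supplied genes were set beside other products of the same organs. Of 14 measured accessory gland protein genes 13 were called higher in adult males and 0 lower, beside 26.6% and 39% over all probe sets. The median difference was 9.47 log2 units, beside -0.21 over all probe sets. Acp95EF was the exception, at 0.11 ± 0.15 (limma adjusted p = 0.542). All 5 measured genes of the ejaculatory duct and bulb were higher in adult males, from EbpIII at 1.84 ± 0.15 to EbpII at 11.08 ± 0.17, with Anp, an antibacterial peptide of the duct, at 8.99 ± 0.14.

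In pupae 1 of the 14 accessory gland genes was called higher in males, 6 were called lower and 7 did not pass, beside 14.3% higher and 51.9% lower over all probe sets. Of the 5 duct and bulb genes 0 were called higher and 4 lower. Among the accessory gland genes lower in male pupae was Acp32CD, at -0.74 ± 0.20 (limma adjusted p = 0.00835). That difference was -0.47 after recentring (limma adjusted p = 0.0897) and -0.45 without female pupae replicate 2. The accessory gland gene higher in male pupae was Acp36DE, which encodes a sperm storage protein. It had 5.80 and 5.70 in male pupae against 4.28 and 4.14 in female pupae, a difference of 1.54 ± 0.18 (limma adjusted p = 4.62e-05). Male larvae were above female larvae too, by 0.92 ± 0.18 (limma adjusted p = 0.0031). The transcription factor gene prd, which the accessory gland needs to form, had 4.97 and 5.30 in male pupae against 4.64 and 4.34 in female pupae, and 6.77 and 7.03 in adult males against 4.38 and 3.90 in adult females. The adult difference was 2.76 ± 0.24 (limma adjusted p = 1.2e-06). The pupal difference of 0.64 ± 0.24 (limma adjusted p = 0.0341) was lost without female pupae replicate 2, without male pupae replicate 2, and under array-median centring, where it was 0.27 with an adjusted p of 0.282. Of the 4 measured gland regulators, prd, dve and the brightest dsx probe set were called higher in adult males and Poxn lower, but the second dsx probe set gave -2.91 where the brightest gave 2.99, so dsx has no single direction here. The dve difference of 0.62 was 0.15 under array-median centring (adjusted p = 0.189), and its second probe set gave -0.40 without a call. The Poxn difference of -0.51 was -0.26 after recentring (adjusted p = 0.169), and its call was lost without female adults replicate 1 (adjusted p = 0.0775) and without male adults replicate 2 (adjusted p = 0.0801).

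The positions of the members were read from the RefSeq annotation of Drosophila melanogaster, Release 6, which held all 8 genes. SPR lies on X, SP on 3L, Dup99B, aqrs and intr on 3R, and antr and both lectin genes on 2R. No genome build is named for the arrays, so only gene order is given. In 4 pairs, genes of the network were next to each other with 0 annotated genes between them: aqrs with CG9997, antr with CG17575, lectin-46Ca with lectin-46Cb, and SPR with frma. In the first 3 pairs both genes were male-supplied, and both were called higher in adult males. Whether a probe set of one gene in these pairs also reads transcripts of the other was not tested. SPR, on its brighter probe set only, and frma both rose from pupa to adult in both sexes. Their annotated spans overlap, and whether a probe set of one also reads transcripts of the other was not tested. The annotated span of CG1648 overlaps those of both lectin genes, and the same was not tested there. CG1648 was higher in adult males by 1.52 ± 0.11 (limma adjusted p = 4.11e-07).

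Beyond these, intr lay 4 annotated genes from aqrs, with CG34295 as the measured gene between them. CG34295 was also higher in adult males, at a mean of 5.41 against 3.69 in adult females, a difference of 1.72 ± 0.15 (limma adjusted p = 1.1e-06). CG34033, next to lectin-46Ca, had a mean of 8.78 in adult males against 4.39 in adult females and was at most at 4.59 on any array outside adult males. It was also among the 3 probe sets closest in profile to antr, at 0.23 log2 units. Next to antr on its other side, CG30486 was higher in adult males by 1.60 ± 0.19 (limma adjusted p = 1.63e-05).

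Not every neighbour shared the pattern. Over the 2 nearest measured genes on each side, 22 different genes outside the lists used here, 11 were called higher in adult males, 3 lower and 8 were not called. The background was again 26.6% called higher and 39% lower. Such a call compares adults only and does not show low levels in the other groups. CG14113, CG17687, Obp99b and CG15784, all called higher, had values on other arrays above their adult male means. Obp99d, directly beside Dup99B, was not called (-0.20 ± 0.16, limma adjusted p = 0.289), and neither was CheB98a, directly beside intr (0.14 ± 0.16, limma adjusted p = 0.464). The nearest measured gene to SP, CG42481, differed by 1.26 ± 0.27 (limma adjusted p = 0.00155). Further from SP, CG32119 differed by 5.36 ± 0.25, CG14113 by 4.60 ± 0.14 and CG17687 by 2.04 ± 0.20. Their adult male means were 11.2, 9.9 and 6.8, but on arrays outside adult males they reached 10.9, 10.6 and 7.4.

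**Figure D4:**
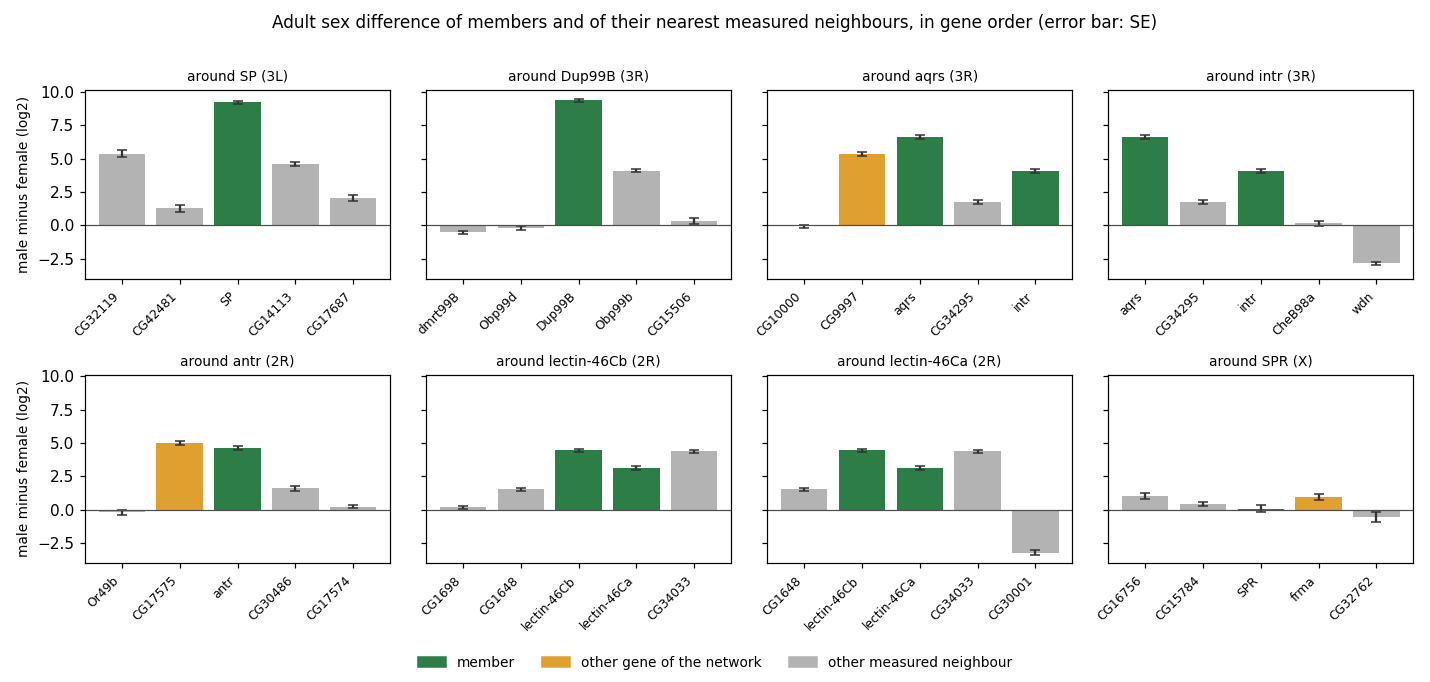
Male minus female difference in adults (log2, bars, with standard errors) of each member and of the 2 nearest measured genes on each side, in gene order along the chromosome arm named above each panel. Members and other network genes beside each other are high in males around aqrs, antr and the lectin genes, CG34033 stands at 4.39, and the genes around SPR lie between -0.54 and 1.03.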

How the data were processed

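The deposited table holds log2 expression, 1 value for each probe set and array (Affymetrix Drosophila Genome 2.0, biotin-labelled target). RMA is named in the submitters' processing notes, with neither version nor options. Of 18952 probe sets, 183 controls were left out. Genes were named from the platform annotation (13647 probe sets with 1 gene, 402 with several, 4720 unnamed here), and 42 of 48 listed genes were measured. The brightest probe set stands for a listed gene.

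Differences were tested with limma 3.58.1 in R 4.3.3, as 6 group means over 12 arrays with eBayes, for 9 comparisons across all probe sets. The test was checked on simulated data. The number of arrays limits the precision. The genes named are the members, the listed genes and, for each member, the 3 with the closest centred profile. Chromosomal neighbours were picked out after their values were seen. The members, the lists and the alternatives were chosen with earlier results of these data known. Alternatives were quantile normalization, array-median centring, recentring, a filter keeping probe sets at 6 or more on 2 arrays, a 2-fold minimum, 1 probe set per gene, leaving out each array in turn, a replicate block, a fit of only those groups that are compared, and robust eBayes with a trend.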

Additional observations from a re-analysis of the deposited data

Results flagged for a closer look

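The sex difference itself changed between pupae and adults for the 7 male-supplied genes, by limma's test of the change, which is why they are listed. The change of the male minus female difference was 9.61 ± 0.16 for SP (adjusted p = 8.22e-11), 9.95 ± 0.19 for Dup99B, 7.20 ± 0.22 for aqrs and 5.13 ± 0.18 for antr. It was 5.06 ± 0.18 for lectin-46Cb, 4.34 ± 0.19 for intr and 3.45 ± 0.22 for lectin-46Ca (adjusted p = 3.76e-07).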

How the results depend on the processing

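In adults, the 7 male-supplied genes were called under all 21 alternatives. Under array-median centring 7 members were called lower in male larvae (4 as reported) and 8 in male pupae (5 as reported), and the dimmer SPR probe set was called lower in adult males (-0.61) and in male pupae (-0.65); after recentring 2 members were called in larvae and 0 in pupae. With a 2-fold minimum 0 were called between the sexes in larvae and in pupae and 0 from larva to pupa in either sex (1 each as reported), and 1 was called from pupa to adult in females (2 as reported). From larva to pupa in males 2 were called after recentring, with the filter on dim probe sets and with 1 probe set per gene. In females 0 were called with only the groups compared. With 1 array left out, the counts lay between 2 and 4 for the sexes in larvae, 3 and 5 in pupae, 1 and 3 from larva to pupa in males, 0 and 1 in females, and 0 and 1 for the change of the sex difference over that step. The rest of these counts stayed within 1.5 times the reported one. CG15784, the measured gene nearest SPR on one side, was at a male minus female difference of 0.43 in adults, and of -0.044 (adjusted p = 0.771) under array-median centring. The cause of these shifts was not tested.

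Arrays with the same replicate number did not deviate together (r between -0.08 and 0.08 over 15 pairs of groups). With the replicate number as a block, 3 members were called lower in male larvae, without Dup99B (adjusted p = 0.0512), and 7 higher in adult males. The block changed no other call. Low values near the array background limit what can be seen in larvae and pupae.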

Other observations

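Gld, which encodes glucose dehydrogenase, an enzyme of the reproductive tract, was at 11.44 and 11.35 in adult males against 6.08 and 6.12 in adult females, a difference of 5.29 ± 0.20 (limma adjusted p = 1.82e-09). From pupa to adult it fell by 5.85 ± 0.20 in females (limma adjusted p = 1.57e-09). Obp99b, next to Dup99B, was higher in adult males by 4.08 ± 0.10 (limma adjusted p = 8.91e-11), although it fell from pupa to adult in both sexes. CG16756, near SPR on X, rose from pupa to adult in males by 4.50 and in females by 2.79.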
